A study of Mus musculus with 12 samples.

Results

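*miR-370* and *miR-341* are processed from hairpins in *Rian*, a long non-coding RNA of the imprinted DLK/GTL2 domain. Their 4 mature miRs, listed as mmu-miR-370-3p, mmu-miR-370-5p, mmu-miR-341-3p and mmu-miR-341-5p and written here without the species prefix, are 4 of the 1927 miRs listed in a miR-seq table of fetal mouse liver, and each has an entry of its own. *miR-370-3p* was chosen because its level was higher in *Mir483*Pat-KO livers and climbed along the order of the libraries in these same data, so for its difference between genotypes and its slope only values are given and no test. The other 3 were chosen by hairpin and position, to see whether they follow it. The livers came from E18.5 female fetuses on a C57BL/6J background, 5 WT and 7 *Mir483*Pat-KO littermates, with 1 library per fetus. *Mir483*Pat-KO fetuses inherited from the father a constitutive deletion of *Mir483*, a miR gene within *Igf2*, made in ES cells by Cre excision of the selection cassette, with more than 1 ES clone injected into blastocysts. The maternal allele, which is the silent allele of this imprinted gene, was intact. The WT fetuses carried no engineered allele.

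Each miR hairpin is cut by the nuclear enzyme Drosha and then by Dicer into a short duplex, of which usually a single strand, the guide, is kept by an Argonaute protein while the partner strand is degraded. The strand from the left of the hairpin is called 5p and that from the right 3p. Positions 2 to 8 of the guide, the seed, pair with target mRNAs. In the DLK/GTL2 domain, named for its genes *Dlk1* and *Meg3* (also called *Gtl2*), the non-coding RNAs *Meg3*, *Rian* and *Mirg* and the miRs and snoRNAs in their introns are transcribed from the maternal chromosome, whereas *Dlk1* and *Dio3* are expressed from the paternal one. *miR-370* has also been studied in hepatocyte cell lines as a regulator of genes of fatty acid oxidation.

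In GRCm38, *Mir341* lies on chromosome 12 from 109611500 to 109611595 and *Mir370* from 109618258 to 109618336, both on the plus strand and 6662 bases apart. *Rian* runs from 109603940 to 109661716 on the same strand. Each hairpin is spanned by 2 of the 20 annotated *Rian* transcripts and is intronic in both. Of the 4 miR genes annotated within *Rian*, *Mir1188* lies only 226 bases after *Mir341*. The reference hairpins from RefSeq (GRCm38.p6), 5′ to 3′, are shown with the mature 5p and 3p miRs in capitals, because the comparison of the arms turns on these segments.
Mir341: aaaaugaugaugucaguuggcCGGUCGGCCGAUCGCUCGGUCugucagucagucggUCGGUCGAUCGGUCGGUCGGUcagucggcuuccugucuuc
Mir370: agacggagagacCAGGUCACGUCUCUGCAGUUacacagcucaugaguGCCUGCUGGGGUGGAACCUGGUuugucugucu

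The 4 mature sequences, from the same RefSeq table, are 20 to 22 bases long and are shown with the seed in capitals. All 4 members matched this table.
miR-370-3p: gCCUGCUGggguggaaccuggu
miR-370-5p: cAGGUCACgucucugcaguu
miR-341-3p: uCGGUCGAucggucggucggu
miR-341-5p: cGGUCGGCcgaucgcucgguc

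No seed was shared among the 4. Of the other mouse miRs in the RefSeq table, only *miR-1193-3p*, uAGGUCACccguuuuacuauc, shared a seed with a member, that of *miR-370-5p*, and its gene also lies in the DLK/GTL2 domain. It was a rare miR here, with 220 reads over the 12 libraries and means of 16.6 ± 9.67 CPM (SD, n = 5) for WT and 25.2 ± 13.1 CPM (SD, n = 7) for *Mir483*Pat-KO. It was not called, with a log2 fold change of 0.62 ± 0.58 (SE) and an adjusted p = 0.675 in edgeR (quasi-likelihood test, Benjamini-Hochberg adjustment over all miRs tested, as throughout). The nearest other mature sequence was 6 edits away for each arm of *miR-341*, where it was the opposite arm, and 7 or 8 edits away for *miR-370-5p* and *miR-370-3p*, so no near-identical mature miR stood to share their reads.

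*miR-341* is built on a repeat. The letters CGGU, read on the RNA strand only and with overlaps allowed, occur 7 times in the *Mir341* hairpin and not at all in that of *Mir370*. They occur 4 times in *miR-341-3p* and 2 times in *miR-341-5p*, and no other of 1679 mature miRs in the table holds them more than 2 times. At least 1 copy is found in 3.87% of these mature miRs and in 11.9% of 1005 hairpins. The 4 mature sequences are also rich in G and C. *miR-370-3p* is 68.2% GC and *miR-341-3p* 66.7%, against a median of 47.8% over the 340 of 388 tested miRs that matched the table, and *miR-341-5p* is 76.2% and *miR-370-5p* 55.0%. Across these 340 miRs, GC content and the slope along the library order had a Spearman's rho of 0.078, and GC content and the genotype difference one of 0.048, given as a description because the miRs share the same 12 libraries. Among the 52 miRs with at least 60% GC, *miR-370-3p* had the 6th highest slope and *miR-341-3p* the 17th.

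The libraries held 658665 to 1211160 reads on miRs, and a floor of 3 counts stood at 2.58 to 4.68 CPM, which covers counting error only because PCR copies are not independent molecules. As a check of the labels, *miR-122-5p*, the hepatocyte miR, made up 11.9% to 17.0% of the scaled reads of each library, and the deleted *miR-483* was read as *miR-483-3p*, with 733 to 1281 reads per WT library and 0 to 19 per *Mir483*Pat-KO library, and *miR-483-5p*, with 245 to 371 and 0 to 4. Levels below are CPM scaled by TMM. Of the 388 miRs tested, 8 (2.06%) were called at an adjusted p under 0.05, 4 of them (1.03%) higher in *Mir483*Pat-KO and 4 (1.03%) lower. Every *Mir483*Pat-KO library was above every WT library for 1.55% of the miRs and below for 1.29%, and no member was in either set. The p-values measure the spread between fetuses. The library index numbers, which are also the order of the columns, are 37 to 41 for WT and 42 to 48 for *Mir483*Pat-KO. The animal numbers in the labels form a lower range, which holds 4 fetuses of each genotype, and an upper range, which holds 1 WT and 3 *Mir483*Pat-KO fetuses. The upper-range fetuses are those with the last index numbers of each genotype, index 41 in WT and 46 to 48 in *Mir483*Pat-KO. Within each genotype the animal numbers rise with every index step, so a slope along the index is also a slope along the animal numbers. The labels do not say what the index order reflects.

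*miR-370-3p*, the abundant arm of its hairpin, was the 74th most abundant of the 388 miRs. In the order of the index its levels were 597, 654, 702, 713 and 795 CPM in the 5 WT livers. In *Mir483*Pat-KO they were 828.6, 793, 1058, 1042, 1355, 1248 and 1423 CPM. The lowest *Mir483*Pat-KO library lay at the level of the highest WT library and the other 6 lay above every WT library. Within each genotype the high libraries were those late in the index. The fold change was 1.60 (95% interval 1.31 to 1.96, log2 0.68, standard error 0.14). The interval takes no account of the choice of *miR-370-3p* for this difference, so it is a description and not a test. The coefficient of variation was 10.6% in WT and 22.2% in *Mir483*Pat-KO, whereas counting error alone would give 3.89% and 3.42%. Within the lower animal-number range, the 4 *Mir483*Pat-KO libraries (793 to 1058 CPM) lay above the 4 WT libraries (597 to 713 CPM), and the log2 fold change was 0.47 ± 0.11 (SE). These libraries are among those for which *miR-370-3p* was chosen, so the values describe it and are no separate evidence of its rise.

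**Figure D1:**
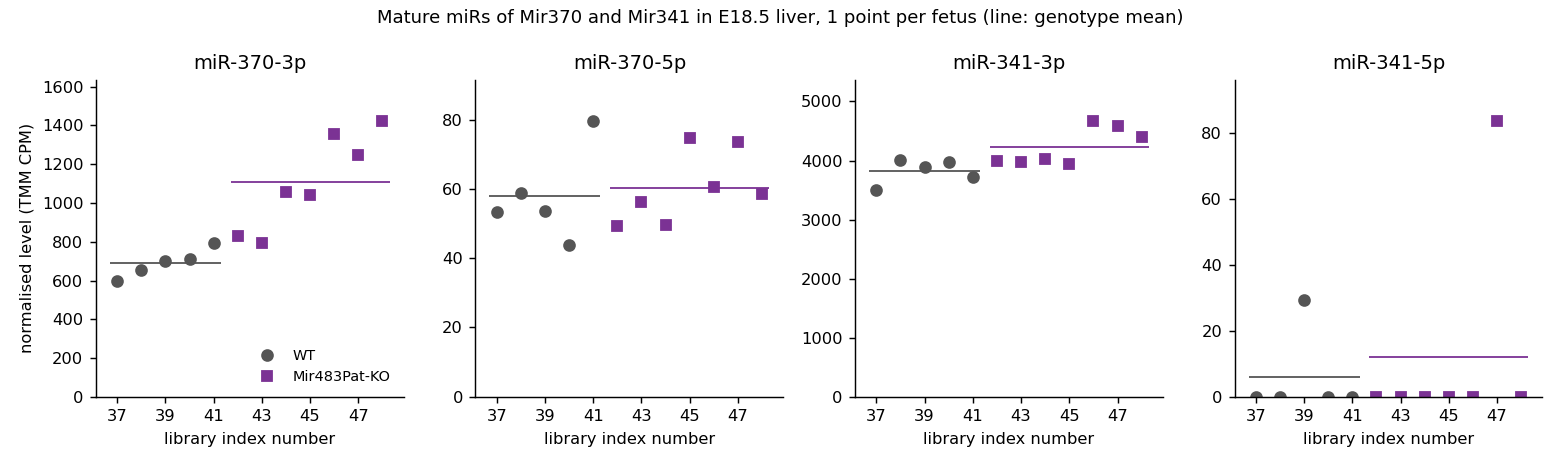
Normalised level (TMM CPM, axes from 0) of each mature miR against the library index number, with 1 point per fetus, circles for WT (n = 5), squares for Mir483Pat-KO (n = 7) and lines at the genotype means. miR-370-3p climbs from 597 to 1423 CPM, miR-370-5p lies between 43.8 and 79.6 CPM, miR-341-3p is high in the last 3 Mir483Pat-KO libraries, and miR-341-5p has reads in only 2 libraries.

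*miR-370-5p*, the partner strand of *miR-370-3p* in the Dicer duplex, did not differ detectably between genotypes. Its WT levels were 53.2, 58.7, 53.7, 43.8 and 79.6 CPM in the order of the index. In *Mir483*Pat-KO they were 49.2, 56.1, 49.5, 74.6, 60.5, 73.6 and 58.4 CPM. The genotypes overlapped throughout, with the lowest and the highest of the 12 libraries both in WT. The fold change was 1.04, with a 95% interval of 0.818 to 1.33 (log2 0.059 ± 0.16 SE, adjusted p = 0.893 in edgeR). A two-sided exact permutation test of the mean CPM, over all 792 assignments of the genotype labels, gave p = 0.717, which was also 0.717 after Benjamini-Hochberg adjustment over the 2 miRs tested in this way. This arm rests on 35 to 79 reads per library, and counting error alone would give a coefficient of variation of 13.4% in WT and 14.7% in *Mir483*Pat-KO, against 23.0% and 17.2% observed. The interval holds values from a fall to 0.818-fold to a rise of 1.33-fold, and the sign of so small a value turned with the covariate or scaling. The log2 fold change was -0.013 with library size alone and -0.0033 with the animal-number range in the model.

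The share of a strand within its hairpin is a ratio of counts from the same library, so it does not depend on how libraries were scaled. The 5p strand made up 5.79% to 9.10% of *miR-370* reads in WT, where the mean was 7.68% ± 1.27 (SD, n = 5). It made up 3.94% to 6.68% in *Mir483*Pat-KO, with a mean of 5.31% ± 1.11 (SD, n = 7). In 5 of 7 *Mir483*Pat-KO libraries the share was below that of every WT library, and the lowest share, 3.94% (exact 95% interval 2.87 to 5.28), was in the library with the last index number, where *miR-370-3p* was highest. The difference of -2.38 percentage points contains the level of *miR-370-3p*, for which the miR was chosen, and is given without a test.

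*miR-341-3p*, the abundant arm of the neighbouring hairpin, was the 37th most abundant miR tested. Its WT levels were 3505, 4003, 3884, 3972 and 3727 CPM in the order of the index. In *Mir483*Pat-KO they were 3986, 3967, 4029, 3938, 4667, 4580 and 4397 CPM. The first 4 *Mir483*Pat-KO libraries lay close together and beside the upper WT libraries, and the last 3 stood apart above all the others. In all, 4 of 7 *Mir483*Pat-KO libraries exceeded the highest WT library and none was below the WT range. The fold change was 1.11, with a 95% interval of 1.01 to 1.21 (log2 0.15 ± 0.063 SE), which did not pass the threshold after adjustment over the 388 miRs (adjusted p = 0.241 in edgeR). The two-sided exact permutation test of mean CPM gave p = 0.0391, or 0.0783 after adjustment over the 2 miRs tested in this way. It is a second test of the same difference beside edgeR, and it treats all libraries as interchangeable whatever their animal range.

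The 3 *Mir483*Pat-KO libraries that stood apart for *miR-341-3p* are the 3 of the upper animal-number range, and for these the animal range and the index order cannot be told apart. They averaged 4548 ± 138 CPM (SD, n = 3). The lower-range *Mir483*Pat-KO fetuses averaged 3980 ± 38.2 CPM (SD, n = 4), and the lower-range WT fetuses 3841 ± 229.6 CPM (SD, n = 4). The single WT fetus of the upper range, at 3727 CPM, did not share their level. Within the lower range alone the log2 fold change was 0.037 ± 0.062 (SE; adjusted p = 0.877 in edgeR), and with the range as a factor in the model it was 0.11 (standard error 0.058, adjusted p = 0.376 by the same test and adjustment).

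The proportion of the neighbouring hairpins was read within each library. There were 5.87, 6.12, 5.53, 5.57 and 4.69 reads of *miR-341-3p* per read of *miR-370-3p* in WT, in the order of the index. In *Mir483*Pat-KO there were 4.81, 5.00, 3.81, 3.78, 3.44, 3.67 and 3.09. The last WT library lay below the first 2 *Mir483*Pat-KO libraries, and the ratio was lowest in the last library of each genotype. As in the arm share, *miR-370-3p* is part of this ratio, so it stands as a description.

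**Figure D2:**
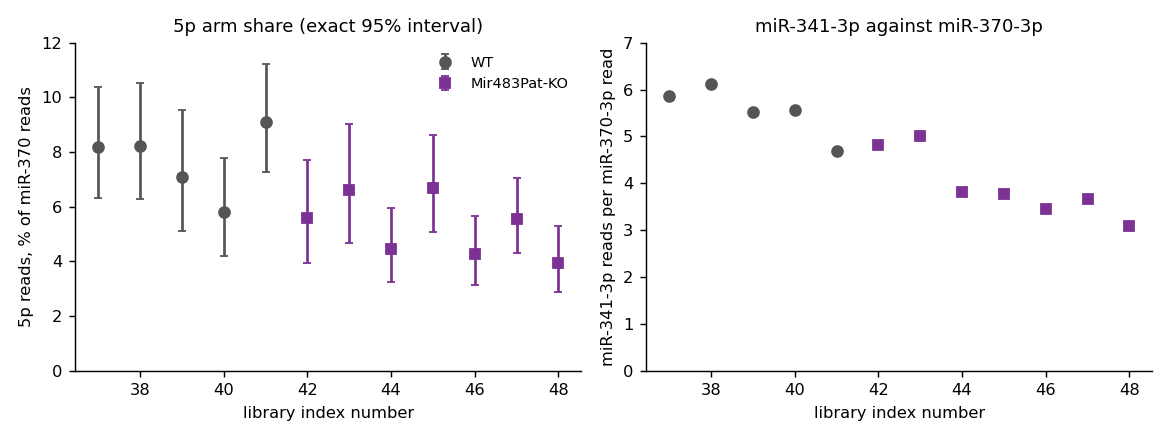
Left, the 5p strand as a percent of miR-370 reads in each library (bars: exact 95% binomial intervals, counting error only). Right, reads of miR-341-3p per read of miR-370-3p. Both are plotted against the library index number with axes from 0, circles for WT and squares for Mir483Pat-KO. The 5p share is 5.79% to 9.10% in WT and 3.94% to 6.68% in Mir483Pat-KO, and the ratio on the right goes from 5.87 in the first library to 3.09 in the last.

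*miR-341-5p* was read in 2 of 12 libraries, with 22 reads (29.5 CPM) in WT replicate 3 and 74 reads (83.7 CPM) in *Mir483*Pat-KO replicate 6. In these libraries it was 0.755% and 1.80% of *miR-341* reads, and in the others a count of 0 among 2545 to 4081 reads allows at most 0.0735% to 0.118%, counting error only. These limits hold if each 0 is a count. The table, which holds no count of 1, does not show whether some entries were left out and written as 0. It did not pass the filter on low counts, so 3 of the 4 members were fitted. The mean share over the WT libraries was 0.151% ± 0.338 (SD, n = 5) and over the *Mir483*Pat-KO libraries 0.257% ± 0.679 (SD, n = 7), with reads in 1 library of each genotype (two-sided exact permutation test, p = 1). With reads in only 2 libraries, no assignment of the labels could have given a p under 0.05, so this test cannot decide whether the share differs. Elsewhere in the table a 0 where reads would be looked for was not rare at low levels. Of the entries of miRs other than *miR-483* predicted at 10 to 20 reads from the other libraries of their genotype, 7.08% were 0, falling to 1.83% at 20 to 40 reads and 0.386% at 40 to 80. *miR-1188*, between *Mir341* and *Mir370*, was near the floor as well. *miR-1188-5p* had 5 reads in 1 WT library and 7 to 11 reads in 4 of 7 *Mir483*Pat-KO libraries, and *miR-1188-3p* had 11 reads in 1 WT library and none in the other 11 libraries.

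To follow the order of the libraries, the index number was added to the model beside genotype, and its coefficient gives the log2 change per index step at a fixed genotype. Over all miRs, 12 of 388 (3.09%) were called for this slope, 6 of them upward (1.55%). *miR-370-3p* had a slope of 0.13 (standard error 0.019), with 0.095 within WT and 0.14 within *Mir483*Pat-KO when the genotypes were fitted apart. *miR-341-3p* had a slope of 0.032 per step (standard error 0.015, 95% interval 0.0010 to 0.063), and the slope was not called (adjusted p = 0.334 in edgeR). The slope of *miR-370-5p* was 0.073 (standard error 0.043, 95% interval -0.019 to 0.17, adjusted p = 0.49 by the same test and adjustment). That interval holds 0, so at this depth the 5p strand could not be told apart from a flat line.

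With the index number in the model, the genotype difference changed sign for all 3 members. It was -0.12 (standard error 0.13) for *miR-370-3p*, -0.050 (standard error 0.10, adjusted p = 0.980) for *miR-341-3p* and -0.38 (standard error 0.30, adjusted p = 0.980, both in edgeR) for *miR-370-5p*. All 3 intervals held 0, that of *miR-370-3p* being a description because the miR was chosen for its values. Because the genotypes occupy separate stretches of the index, a change with library order and one with genotype cannot be told apart. Within a genotype, the index order and the order of the animal numbers are the same and cannot be told apart either.

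**Figure D3:**
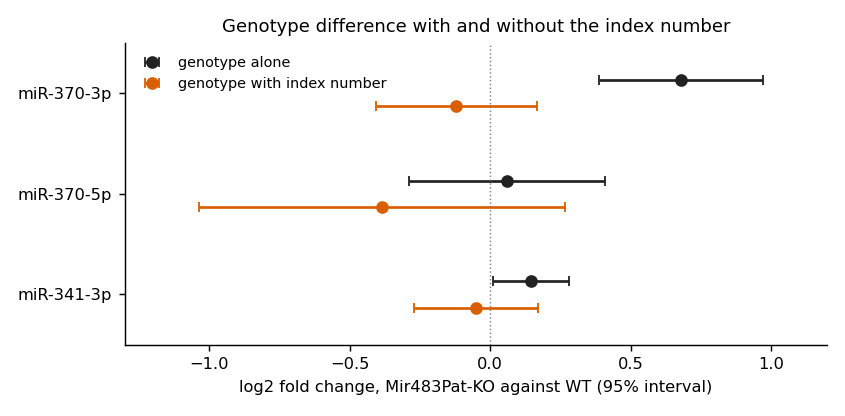
Log2 fold change between Mir483Pat-KO and WT with its 95% interval for the 3 members that passed the filter, from the model with genotype alone (black) and with the index number added (orange). With genotype alone the values are 0.68, 0.059 and 0.15, and with the index number they are -0.12, -0.38 and -0.050, with intervals that hold 0. miR-370-3p was chosen for its values, so its intervals are a description and not a test.

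The other miRs of the DLK/GTL2 domain were taken as a list of 55 hairpins, all of which GENCODE places between *Dlk1* and *Dio3*. The list leaves out 12 of the 67 miR genes annotated there. Left out with them was *miR-1247-5p*, with a log2 fold change of -0.35 ± 0.18 (SE). Its index slope was -0.11 ± 0.044 (SE, unadjusted p = 0.0231 in edgeR), and neither value was called. Of the mature miRs on the list, 76 passed the filter, and by genotype difference *miR-370-3p* stood 2nd, *miR-341-3p* 30th and *miR-370-5p* 46th among these. By index slope *miR-370-3p* stood 7th, *miR-370-5p* 12th and *miR-341-3p* 34th of the 76. Leaving out the 3 members, 2 of the 73 others were called higher and none lower in *Mir483*Pat-KO by edgeR, where 1.03% of all 388 miRs were called in each direction. Of the 4 higher calls among the 388, 3 were on the list with its members. Without WT replicate 2 or without WT replicate 3, no miR of the table was called higher by edgeR, with 52 and 56 miRs at an unadjusted p under 0.05 in either direction. Of the 73, 2 were lower at an unadjusted p under 0.05 and 0 by DESeq2 or limma-voom. In all, 48 were above and 25 below 0, with a median log2 fold change of 0.10, against 0.0028 over all 388. Along the index 5 of the 73 were called upward and none downward by edgeR, against 1.55% of all miRs in each direction (0 downward at an unadjusted p under 0.05, and 0 by DESeq2 or limma-voom), and their median slope was 0.024, against -0.0015 over all. All 6 upward calls among the 388 miRs were on the list of 76 with its members, so that 1.55% is no background from outside the list. The 5 were all of *Mirg* and include *miR-409-3p*, *miR-381-3p* and *miR-300-3p*, for which only values are given below. By position, the median log2 fold change was 0.17 for the 11 miRs on the *Meg3* side, 0.12 for the 10 of the anti-*Rtl1* transcript and 0.075 for the 52 of *Mirg*, so *miR-341-3p*, at 0.15, lay within the range of these medians. With the index number in the model, 31 of the 73 were above 0, with a median of -0.045.

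**Figure D4:**
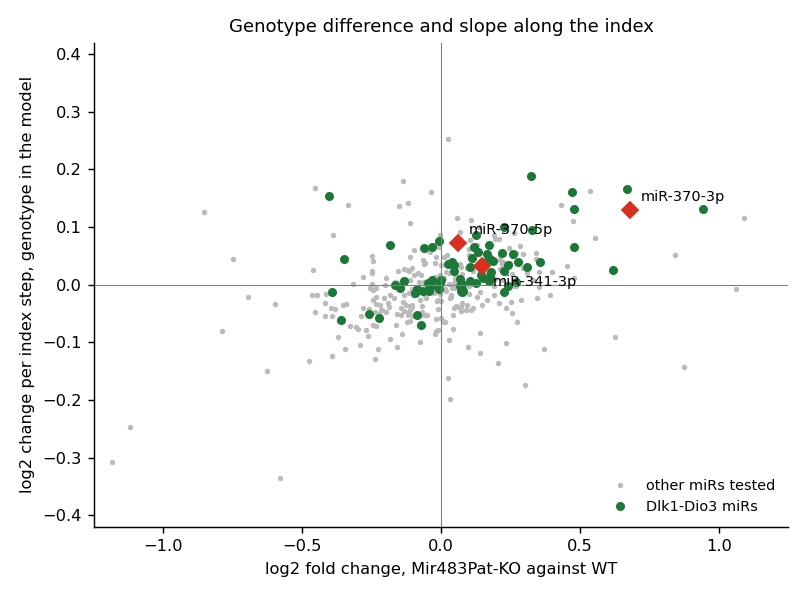
Log2 fold change between genotypes (x) and log2 change per index step with genotype in the model (y) for the miRs tested, with the 3 members as red diamonds, 73 other listed Dlk1-Dio3 miRs as green points and 305 other miRs in grey (7 miRs outside the axes are not drawn). miR-370-3p lies far to the right and above 0 (0.68 and 0.13), while miR-341-3p (0.15 and 0.032) and miR-370-5p (0.059 and 0.073) lie among the other Dlk1-Dio3 miRs.

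The miRs whose levels went most closely with *miR-370-3p* were not its hairpin partner or its neighbour but 3p miRs of *Mirg*, the cluster at the far end of the domain. After each genotype was centred on its mean log2 CPM, Pearson's r over the 12 libraries was 0.98 for *miR-409-3p*, 0.95 for *miR-381-3p*, 0.92 for *miR-300-3p*, 0.84 for the joint entry *miR-299a-3p/299b-3p* and 0.84 for *miR-223-5p*, a miR of myeloid cells from another locus. *miR-223-5p* was rare, with means of 17.2 ± 1.79 CPM (SD) in WT and 15.5 ± 4.85 CPM (SD) in *Mir483*Pat-KO. *miR-341-3p*, at 0.72, came 16th of the 387 other miRs and *miR-370-5p*, at 0.39, came 78th. With 35 to 79 reads per library, counting error limits the r that *miR-370-5p* could reach, so its place does not show that the 2 arms vary separately. These values describe libraries that share a scaling and an index order.

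The 3 closest were abundant miRs. They were picked for their likeness to a miR that was itself chosen for its climb along the index, so their differences and slopes are given as values, without a test. *miR-409-3p* averaged 8669 ± 469 CPM (SD) over the 5 WT livers and 10094 ± 948 CPM (SD) over the 7 *Mir483*Pat-KO livers. Its log2 fold change was 0.22 ± 0.069 (SE) and its index slope 0.056 ± 0.011 (SE). *miR-381-3p* had a log2 fold change of 0.33 (standard error 0.0995) and a slope of 0.096 (standard error 0.012), and *miR-300-3p* 0.16 (standard error 0.067) and 0.053 (standard error 0.012). None of the slopes of the 388 miRs was called in edgeR once the animal-number range was added to the model of genotype and index number, an alternative chosen after the data were seen, although 31 had an unadjusted p under 0.05, and DESeq2 called 12 and limma-voom 1.

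For *miR-341-3p* the closest were *miR-1197-3p* at r = 0.87, *miR-5114* at 0.77, *miR-300-3p* at 0.75, *miR-666-5p* at 0.73 and *miR-18a-5p* at 0.72, of which *miR-1197-3p*, *miR-300-3p* and *miR-666-5p* belong to *Mirg*. *miR-5114* was rare, with means of 25.9 ± 8.27 CPM (SD) in WT and 28.1 ± 7.29 CPM (SD) in *Mir483*Pat-KO. *miR-370-5p*, limited by its depth, had an r of 0.11 with *miR-341-3p*. No difference between genotypes was detected for *miR-1197-3p*, whose WT mean was 214 ± 22.8 CPM (SD, n = 5) and *Mir483*Pat-KO mean 205 ± 33.3 CPM (SD, n = 7), with an adjusted p of 0.836 in edgeR.

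The hepatocyte marker moved the other way. *miR-122-5p* had a centred r of -0.90 with *miR-370-3p* and of -0.67 with *miR-341-3p* over the 12 libraries, and its index slope was -0.065 (standard error 0.014, adjusted p = 0.0165 in edgeR). The last library of each genotype was the lowest, at 126837 CPM in WT and 118609 CPM in *Mir483*Pat-KO, and the highest were the first WT library (161197 CPM) and the second *Mir483*Pat-KO library (169818 CPM), with means that did not differ detectably between genotypes (adjusted p = 0.976 by the same test and adjustment). As given above, no slope was called in edgeR with the animal-number range beside the index. The r values here describe libraries that share a scaling and an index order, and *miR-370-3p* was chosen for its climb along that order. The summed level of the 2 endothelial markers (*miR-126a*) also ran against *miR-370-3p*, at r = -0.75, over 953 to 1261 CPM for WT and 725 to 1221 CPM for *Mir483*Pat-KO. That of the 2 stellate cell markers (*miR-199a-3p* and *miR-214-3p*) ran with it, at r = 0.59, over 827 to 1563 CPM for WT and 1111 to 2106 CPM for *Mir483*Pat-KO. Nearly all of that sum was *miR-199a-3p*, read jointly as *miR-199a-3p/199b-3p*, with a log2 fold change of 0.47 ± 0.17 (SE) and a slope of 0.11, whereas the rarer *miR-214-3p* had values of -0.32 ± 0.22 (SE) and 0.0019, and neither difference was called. *miR-199a-5p*, the other arm, which was not in the list and was looked up after the sums were seen, had a log2 fold change of -0.073 ± 0.15 (SE) and a slope of 0.017. The 4 erythroid markers (*miR-451a*, *miR-144* and *miR-486*) had r = 0.41, over 23848 to 31974 CPM and 25913 to 37810 CPM, and the 4 white blood cell markers (*miR-142a*, *miR-223-3p* and *miR-150-5p*) r = -0.21, over 11043 to 14595 CPM and 13119 to 14759 CPM. No marker was at 0 in all libraries. None of the 12 that passed the filter was called between genotypes by edgeR, DESeq2 or limma-voom, with 3 at an unadjusted p under 0.05, and with the log2 of the total count *miR-370-3p* had r = 0.15. The part of these in the levels of *miR-370* and *miR-341* was not tested, and in RNA of bulk liver fewer cells of a type and less RNA per cell cannot be told apart.

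**Figure D5:**
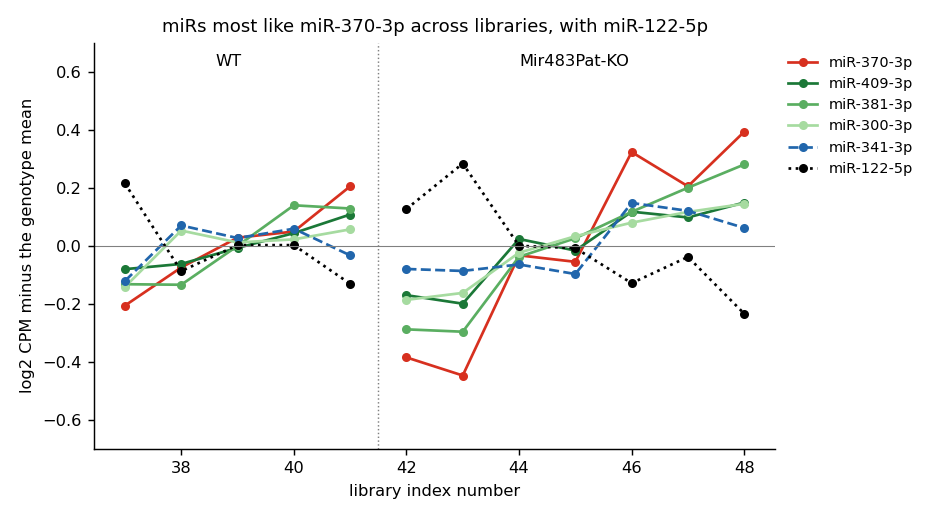
Log2 CPM minus the genotype mean for miR-370-3p, the 3 miRs most like it, miR-341-3p (dashed) and miR-122-5p (dotted) against the library index number, with 1 point per fetus and a vertical line between WT and Mir483Pat-KO. miR-409-3p, miR-381-3p and miR-300-3p follow miR-370-3p (r = 0.98, 0.95 and 0.92), miR-341-3p follows it less closely (0.72), and miR-122-5p runs the other way (-0.90).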

How the data were processed

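Small RNA libraries were made by the authors with the TruSeq Small RNA kit from total liver RNA and sequenced on a NovaSeq6000. The deposited values are counts of reads per mature miR from miRge, 1 column per fetus, not normalized; the miR reference, adapter trimming and strand setting are not given in the sources used here. Fetuses were grouped by their labels, and columns were matched by animal number. Nothing else says how litters fell across samples.

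miRs were kept by filterByExpr (minimum count 10, minimum total 15), which left 388 of 682 with a count. TMM scaling, estimateDisp, glmQLFit (legacy = TRUE) and two-sided glmQLFTest were run in edgeR 4.0.16 (R 4.3.3) on a design of genotype, or of genotype plus index number, and p-values were adjusted by Benjamini-Hochberg over all 388. Centred log2 CPM used a prior count of 2. Exact permutation tests and exact binomial 95% intervals used scipy 1.17.1. The code was tested on simulated data. No 2 of the 31 library pairs within a genotype were identical or alike within sampling noise (chi-square per degree of freedom at least 5.11).

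The named miRs are the 4 members, *miR-483* as a check of the labels, *miR-1188*, the 5 miRs most like *miR-370-3p* and *miR-341-3p* by centred Pearson's r, and miRs sharing a seed. *miR-1247-5p* is named as a miR left off the list of the domain. The members and lists were chosen with earlier results of these data known. Sequences are from RefSeq and positions from GENCODE M21, both GRCm38, the build in the submitters' processing notes. Alternatives were other scalings, filters, dispersions, DESeq2 1.42.0, limma-voom (limma 3.58.1), covariates, a replicate block and leaving out each fetus. Figures used matplotlib 3.10.9.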

Additional observations from a re-analysis of the deposited data

Results flagged for a closer look

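*miR-341-5p* stood apart in WT replicate 3, at 29.5 CPM with the other 4 WT libraries at 0, and in *Mir483*Pat-KO replicate 6, at 83.7 CPM with the other 6 at 0, so that in each genotype the gap to the nearest library was the whole range of the group. These were the only such gaps among 12 groups examined (6 measures in each genotype), and the limit used, the 95% critical value of Dixon's ratio, is passed by chance in about 1 group in 20 of normally distributed values, which counts mostly at 0 are not. By a rule chosen after the values were seen, *miR-341-5p* was the only miR of the table with 50 or more reads in some library and reads in no more than 2 libraries. In the same 2 libraries *miR-341-3p* was at 3884 and 4580 CPM, inside the range of its genotype. The lowest count above 0 in the table is 2, and it holds no count of 1.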

How the results depend on the processing

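*miR-341-3p* and *miR-370-5p* stayed uncalled for genotype and for the index slope in every alternative that gave an adjusted p, the lowest being 0.0717 (*miR-341-3p* slope, DESeq2), and DESeq2 gave none for the *miR-370-5p* slope. Adjusted p below are from edgeR. No call is given for *miR-370-3p*, which was chosen for its values. The log2 fold change of *miR-341-3p* ran from -0.050 (index number in the model, adjusted p = 0.980) to 0.15. That of *miR-370-3p* ran from -0.12 (index number) to 0.69 and was 0.32 with the rank of the animal number. That of *miR-370-5p*, near 0, changed sign most often, to -0.013 with library size alone (adjusted p = 0.982), -0.0033 with the animal-number range (0.992), -0.38 with the index number (0.980) and -0.18 with the rank of the animal number (0.912). The replicate numbers do not pair the fetuses (correlations of same-numbered deviations from -0.24 to 0.23), and with them as a replicate block over replicates 1 to 5 it was -0.011 (adjusted p = 0.990) and 3 miRs were called. Leaving out each fetus in turn gave 0.12 to 0.16 for *miR-341-3p*, 0.60 to 0.73 for *miR-370-3p* and -0.028 to 0.20 for *miR-370-5p*, below 0 without WT replicate 4 (-0.028) and without *Mir483*Pat-KO replicate 4 (-0.0053). The slopes stayed within 0.026 to 0.043, 0.12 to 0.14 and 0.041 to 0.10 for the same miRs. The *miR-341* arm share difference, 0.106 percentage points, ran from -0.151 (without *Mir483*Pat-KO replicate 6, exact permutation p = 0.455) to 0.257, and that of *miR-370* from -2.85 to -2.02. With *miR-341-5p* read in so few libraries, that permutation test could not have given a p under 0.05. Over all miRs, the 8 genotype calls became 14 with library size alone (3 higher and 11 lower, the median of all miRs moving to -0.063), 27 by DESeq2 (13 higher and 14 lower), 5 with the animal-number range, 2 within its lower part only, 3 with the index number, 2 with the animal number ranked, and 3 to 12 without 1 fetus. None of the calls was higher in *Mir483*Pat-KO without WT replicate 2 (5 calls) or WT replicate 3 (3 calls), where 52 and 56 miRs had an unadjusted p under 0.05 in either direction, nor in the lower range or with the animal number ranked (32 and 25 miRs). The 12 index calls became 24 by DESeq2 and 3 to 13 without 1 fetus. With the animal-number range beside the index, an alternative chosen after the data were seen, 0 were called in edgeR, with 31 at an unadjusted p under 0.05, 12 by DESeq2 and 1 by limma-voom, and the slope was 0.022 for *miR-341-3p* (standard error 0.026, adjusted p = 0.903), 0.0092 for *miR-370-5p* (adjusted p = 0.969) and 0.11 for *miR-370-3p*. Without the filter, *miR-341-5p* differed by 1.06 ± 1.58 (log2, SE; adjusted p = 0.788), which rests on its 2 libraries. Depth limits *miR-370-5p*, at 35 to 79 reads per library, and *miR-1188*, at or near the floor. The comparison has 5 and 7 fetuses, and genotype, library order and in part the animal range move together.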
